A study of Mus musculus with 6 samples.

Results

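RGS proteins (regulators of G protein signalling) switch off heterotrimeric G proteins, and the genes described here are 10 of them in mouse embryonic fibroblasts (MEFs). They are Rgs2, Rgs3, Rgs4, Rgs5, Rgs10, Rgs12, Rgs14, Rgs16, Rgs17 and Rgs19, chosen by name and found in the deposited table by the Ensembl identifier that GENCODE gives each gene. All 10 were present among the 56953 genes of the table. The rule that picks them uses no measured value, although they were proposed with earlier results of these data known.

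The data were poly-A RNA sequencing libraries of cultured MEFs, 3 labelled WT and 3 labelled GαqKO. The methods describe the second line as cells without Gαq and Gα11 and name it GαqKO, and both lines came from the same laboratory and were grown in the same serum-containing medium. No treatment was given, the strain, sex and embryonic age are not given in the sources used here, and no second line of either genotype is named. The comparison asks how the RGS transcripts differ between MEFs labelled WT and MEFs described as lacking Gαq and Gα11.

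A G protein is active while its α subunit holds GTP. The RGS domain speeds up the hydrolysis of that GTP, so RGS proteins shorten signalling by receptors of the Gi and Gq classes. The small R4 proteins (here Rgs2, Rgs3, Rgs4, Rgs5 and Rgs16) act on Gαi or Gαq or both, and Rgs2 prefers Gαq. The R12 proteins (Rgs10, Rgs12, Rgs14) and the RZ proteins (Rgs17, Rgs19) act mainly on subunits of the Gi class. Several R4 genes are known as genes that respond quickly to the very signals their proteins limit.

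The reads on genes ran from 9853000 to 12229175 per library, recovered from the normalized counts, each the reads on a gene after division by the size factor of its library. Of the genes the label concerns, Gna11 (Gα11) fell, from 2140.6, 2179.9 and 2123.2 normalized counts in WT to 472.3, 463.6 and 418.9. Gnaq (Gαq) was not lower, at 1665.5, 1660.2 and 1746.6 against 1959.7, 1930.9 and 1888.2, so the libraries are called by their label. The 4 Y-linked genes examined summed to between 2566.5 and 2800.1 normalized counts in WT and were at 0 in each library labelled GαqKO, and 2 epithelial marker genes, Krt14 and Cdh1, were lower there. Of 11 fibroblast markers 10 were tested, with 4 higher (Pdgfra, Thy1, Dcn, S100a4) and 1 lower (Col1a1). Thy1 was tested only through its level in GαqKO, and Krt14 and Cdh1 only through theirs in WT, so these counts carry no weight. With at least 10 normalized counts required in every library 9 fibroblast markers were tested, with 3 higher and 1 lower. Under that rule 0 epithelial markers were tested. Over all tested genes 10.2% were higher and 10.5% lower. Genotype, cell line and sex cannot be told apart in these libraries, nor can fewer cells of a type and less RNA per cell.

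Rgs2, Rgs4, Rgs16 and Rgs19 were higher in the libraries labelled GαqKO and Rgs10 was lower, each past both thresholds used, an adjusted p under 0.05 in limma and a log2 fold change beyond 1 in size. Rgs3 and Rgs12 were tested and did not pass. Rgs5, Rgs14 and Rgs17 stayed under the filter, which asked for 10 or more normalized counts in 3 or more libraries. The 5 of 7 tested genes past the thresholds stand against a background of 20.7% of the 14096 genes tested, with 10.2% higher and 10.5% lower. Rgs2, Rgs4 and Rgs16 passed the filter only through the libraries in which they were high, so this count carries no weight of its own, and with at least 10 normalized counts required in every library 2 of 4 tested genes, Rgs10 and Rgs19, passed. The median log2 fold change of the 7 genes was 1.06, the value of Rgs19, and that of all tested genes was -0.01. The median of the 7 includes Rgs2, Rgs4 and Rgs16 and so carries no weight of its own either.

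**Figure D1:**
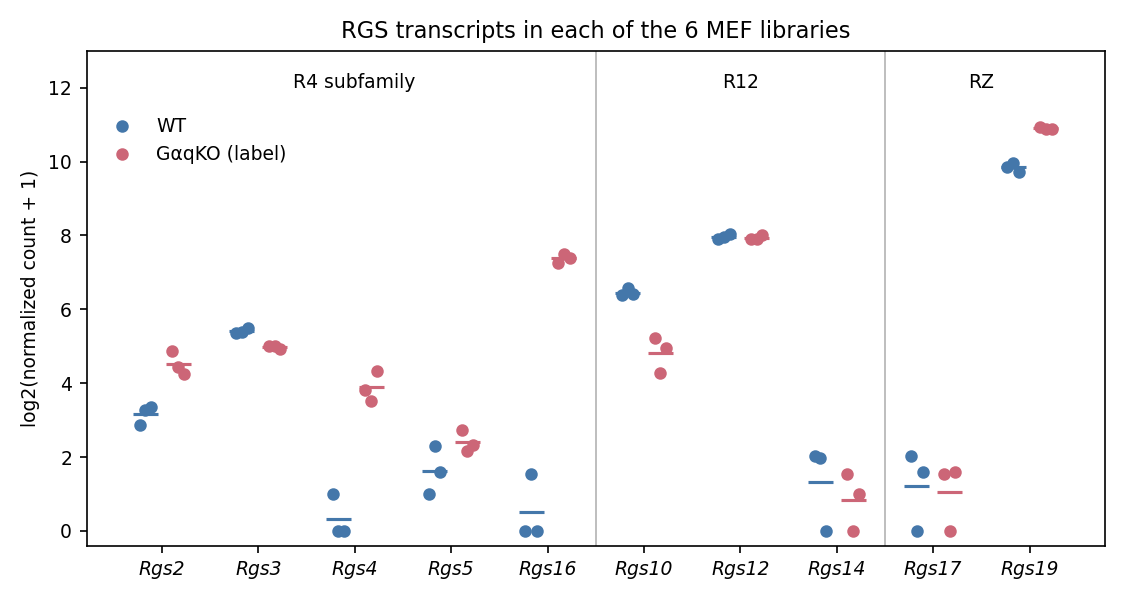
Levels of the 10 RGS genes on the scale log2(normalized count + 1), with 1 point per library, WT in blue and the libraries labelled GαqKO in red, and bars at the mean of the 3 points. Rgs16, Rgs4, Rgs2 and Rgs19 lie higher in red without overlap, Rgs10 lies lower, and Rgs12 overlaps.

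Rgs16 had the largest difference of the 7 tested genes. Its R4 protein acts on Gαi and Gαq. The gene (ENSMUSG00000026475.8, chromosome 1 of GRCm39, 153616091 to 153621228, plus strand) was listed at 0, 1.9 and 0 normalized counts in WT replicates 1, 2 and 3 and at 152.1, 179.2 and 167.2 in GαqKO replicates 1, 2 and 3. The groups were far apart, with 2 reads in all in WT and 483 in the other group. The log2 fold change was 6.86 (standard error [SE] 0.419, adjusted p = 5.65e-09 from limma). Since each WT library was at or under the floor of 3 reads, the difference is better read as at least 53.0-fold higher, the GαqKO mean of 166.2 against 3 reads in a library. All exon bases of Rgs16 (100.0%) lie inside the span of the antisense gene Gm28513, which was listed at 0 in all 6 libraries. Of 898 protein-coding genes with all exons inside spans of the opposite strand, 72.2% were listed at 0 in every library, against 25.2% of 11516 without overlap. The strand setting of the counting is not given in the sources used here and the part of this overlap in the level of Rgs16 was not tested, so its level and its 0 values are given as listed.

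Rgs4 encodes another R4 protein that acts on Gαi and Gαq. The gene (ENSMUSG00000038530.12, chromosome 1, 169569046 to 169575218, minus strand) had 1.0, 0 and 0 normalized counts in WT and 13.2, 10.4 and 19.1 in GαqKO. The groups did not overlap, and the counts were 1 read in WT and 42 in GαqKO. The log2 fold change was 3.54 (SE 0.552, adjusted p = 6.75e-05 from limma), and against the floor of 3 reads in a library Rgs4 was at least 4.54-fold higher. Its neighbour Rgs5, an R4 gene 44.2 kb away on the opposite strand, is known as a marker of pericytes. Rgs5 had 1.0, 3.9 and 2.0 normalized counts in WT and 5.6, 3.5 and 4.0 in GαqKO, values that overlapped. Without the filter its log2 fold change was 0.77 (adjusted p = 0.383 from limma), which at 7 and 13 reads was not detectable at this depth.

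Rgs2 encodes the R4 protein with a preference for Gαq. The gene (ENSMUSG00000026360.10, chromosome 1, 143875076 to 143879899, minus strand) had 6.3, 8.7 and 9.2 normalized counts in WT and 28.2, 20.8 and 18.1 in GαqKO. All 3 GαqKO values were above the WT values. The means were 8.06 ± 1.6 and 22.4 ± 5.2 (SD, n = 3 each), the log2 fold change was 1.36 (SE 0.339, adjusted p = 0.00294 from limma), and its 95% interval ran from 0.63 to 2.09. The result rests on 24 and 66 reads.

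Rgs3, whose R4 protein acts on Gαi and Gαq (ENSMUSG00000059810.19, chromosome 4, 62478084 to 62622238, plus strand), had 39.7, 40.8 and 43.8 normalized counts in WT and 31.0, 31.2 and 29.2 in GαqKO. The groups did not overlap, as was true of 69.6% of all tested genes and of 6 of the 7 tested RGS genes. Its log2 fold change of -0.43 (SE 0.214, adjusted p = 0.0923 from limma) did not pass the thresholds. When limma was run without the trend the adjusted p was 0.0019, still with a fold under the threshold. The median log2 fold change of the 19 other tested genes within 1 Mb was also -0.43, and its difference from that median was 0.00.

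Rgs2, Rgs4 and Rgs16 moved in the same direction on chromosome 1, so the 250 bases before the canonical start site of each are shown to let a reader compare their proximal promoters. Capitals mark matches to a CCAAT box (CCAAT), an Sp1 box (GGGCGG) or a TATA box (TATAAA) on either strand, so that a match on the other strand reads ATTGG or CCGCCC. They were read 5′ to 3′ on each gene's own strand from GRCm39, from chr1:143879900-143880149 (minus strand) for Rgs2, chr1:169575219-169575468 (minus strand) for Rgs4 and chr1:153615841-153616090 (plus strand) for Rgs16.
Rgs2: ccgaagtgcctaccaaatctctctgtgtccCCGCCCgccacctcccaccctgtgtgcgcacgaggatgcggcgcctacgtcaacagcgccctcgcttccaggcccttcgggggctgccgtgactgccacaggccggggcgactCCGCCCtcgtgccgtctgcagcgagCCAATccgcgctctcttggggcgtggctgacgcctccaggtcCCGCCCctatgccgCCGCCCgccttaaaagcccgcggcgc
Rgs4: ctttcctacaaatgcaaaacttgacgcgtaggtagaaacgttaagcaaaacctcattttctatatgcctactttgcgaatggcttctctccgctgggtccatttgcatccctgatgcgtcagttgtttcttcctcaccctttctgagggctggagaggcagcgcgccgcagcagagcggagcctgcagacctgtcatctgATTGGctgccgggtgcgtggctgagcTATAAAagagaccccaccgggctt
Rgs16: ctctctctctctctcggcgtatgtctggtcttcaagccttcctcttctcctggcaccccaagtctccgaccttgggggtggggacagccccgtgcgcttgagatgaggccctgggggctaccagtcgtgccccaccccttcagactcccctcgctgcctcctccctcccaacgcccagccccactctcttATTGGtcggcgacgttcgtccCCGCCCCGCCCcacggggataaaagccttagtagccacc
The Rgs2 window had a GC content of 71.2%, with 4 Sp1 boxes and 1 CCAAT box. The Rgs4 window, at 53.2% GC, held a TATA box 24 to 19 bases before the start and a CCAAT box on the other strand. The Rgs16 window, at 64.8% GC, held 2 Sp1 boxes that overlap by 1 base and a CCAAT box on the other strand. The median GC content of the 21664 promoters of the same length was 53.2%. A CCAAT box was thus the match that all 3 windows shared, and it occurred in 36.5% of all these promoters, a Sp1 box in 36.4% and a TATA box in 11.9%. Rgs5, which was not tested, also held a CCAAT box. The letters of a cAMP response element (TGACGTCA, 1.68% of promoters), an AP-1 site (TGANTCA, 6.19%), a TEAD site (GGAATG, 12.1%) and a CArG box (1.4%) were in none of the 3 windows. These matches describe letters only.

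Chromosome 1 holds 11 of the 21 classical RGS genes, 4 of them among the 10 described. Of these 11, 4 were tested, with 3 higher (Rgs2, Rgs4, Rgs16) and 1 lower (Rgs20). All 4 passed the filter only through the libraries in which they were high, so this count carries no weight. Over all tested genes 20.7% passed the thresholds. Over the 821 tested genes of the chromosome the median log2 fold change was -0.02. The tested genes within 1 Mb of Rgs2, Rgs4 and Rgs16 had medians of -0.27 (6 genes), -0.40 (10 genes) and -0.21 (9 genes). The 3 genes thus differed in direction from the middle of their surroundings. Of the nearest protein-coding genes, Rgs8 (an R4 gene 40.0 kb from Rgs16) had 1.0, 1.0 and 0 normalized counts in WT and 1.9, 3.5 and 5.0 in GαqKO, and it was not tested. Uchl5, 191.4 kb from Rgs2, had a log2 fold change of 0.09 (adjusted p = 0.29 from limma), and Rgs13 on its other side was at 4.1 normalized counts or less in each library. Ccdc190, 180.0 kb from Rgs4 on the side away from Rgs5, was at 1.0 or less.

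Rgs10 was the gene of the set that fell. Its R12 protein, little more than an RGS domain, acts on the Gi class and is best known from immune cells. The gene (ENSMUSG00000030844.12, chromosome 7, 127975345 to 128020482, minus strand) had 82.5, 94.2 and 83.5 normalized counts in WT and 36.6, 18.5 and 30.2 in GαqKO. Each GαqKO value was under the lowest WT value. The means were 86.7 ± 6.5 and 28.4 ± 9.2 (SD, n = 3 each), and the log2 fold change was -1.62 (SE 0.244, 95% interval -2.15 to -1.10, adjusted p = 4.83e-05 from limma). The 42 other tested genes within 1 Mb had a median of 0.15, and its neighbours Rusf1 and Tial1 had log2 fold changes of 0.45 (adjusted p = 0.00185) and 0.14 (adjusted p = 0.0164, both limma). The 6 macrophage and blood markers summed to between 105.4 and 120.5 normalized counts in WT and between 70.4 and 104.1 in GαqKO. Of the 2 that were tested, 0 passed both thresholds in limma, edgeR or DESeq2, and 1, Cd68, was lower at an adjusted p of 0.0296 in limma, as 65.8% of all tested genes were under 0.05 in either direction. The defining markers Ptprc and Tyrobp were at 3.1 normalized counts or less and at 0. Their part in the level of Rgs10 was not tested.

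Rgs12, a large R12 protein that also carries a GoLoco motif for inactive Gαi, did not pass the test. The gene (ENSMUSG00000029101.17, chromosome 5, 35106715 to 35196988, plus strand) had 240.2, 249.7 and 259.6 normalized counts in WT and 236.6, 237.0 and 254.8 in GαqKO, and the groups overlapped. The log2 fold change was -0.04 (SE 0.0892, adjusted p = 0.704 from limma), with a 95% interval from -0.23 to 0.15. At 742 and 710 reads this interval leaves room for a small difference in either direction. Of its exon bases 18.4% lie inside spans of other genes. Rgs14, the other R12 protein with a GoLoco motif, was at 3.1, 2.9 and 0 normalized counts in WT and 1.9, 0 and 1.0 in GαqKO. Rgs17, an RZ gene, was at 3.1, 0 and 2.0 in WT and 1.9, 0 and 2.0 in GαqKO. Both genes were at or under 3 reads in each library, so no fold is given.

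Rgs19, also known as GAIP, was the most abundant of the 10 and the other RZ gene. Its protein acts on the Gi class. The gene (ENSMUSG00000002458.14, chromosome 2, 181330212 to 181335997, minus strand) had 924.1, 991.8 and 837.7 normalized counts in WT and 1951.3, 1873.1 and 1900.3 in GαqKO. The groups were well apart, at 917.9 ± 77.3 and 1908 ± 39.7 (SD, n = 3 each), which is 2.08-fold higher. The log2 fold change was 1.06 (SE 0.0601, adjusted p = 2.68e-09 from limma) with a 95% interval from 0.93 to 1.19, so the fold threshold lies inside the interval. Without WT replicate 3 it was 0.99 (adjusted p = 1.11e-08) and no longer over 1.

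The genes around Rgs19 were higher as well. Of 26 other tested genes within 1 Mb, 22 had a log2 fold change above 0, 7 were past the thresholds, all higher, and the median was 0.88. Over all tested genes 10.2% were higher past the thresholds, and the median log2 fold change was -0.01. Over the last 20 Mb of chromosome 2 before Rgs19 and up to the chromosome end, 154 of 179 tested genes were above 0, with a median of 0.88 and quartiles of 0.53 and 1.28. The median was 0.21 over the stretch from 40 to 20 Mb before Rgs19 (157 genes), 0.35 from 60 to 40 Mb (128 genes) and -0.26 over the rest of the chromosome (655 genes). Rgs19 exceeded the median of its own neighbourhood by 0.18. With neighbourhood medians removed, an alternative chosen after seeing the data, its log2 fold change was 0.18 (adjusted p = 0.0212 from limma). The median was subtracted as a fixed value, so this p leaves out the spread among the neighbouring genes and does not measure an excess over them. The stretches were chosen after seeing the data. What Rgs19 shares with its chromosome end and what may be its own cannot be told apart here. Tcea2, a transcription elongation factor gene whose 3′ end overlaps that of Rgs19, rose from 120.1, 139.9 and 109.9 to 459.2, 455.6 and 506.5 normalized counts (log2 fold change 1.94, SE 0.106, adjusted p = 1.79e-09 from limma). Of the exon bases of Rgs19 15.8% lie inside Tcea2. Lkaaear1, 2.6 kb away on the other side, was at 2.3 normalized counts or less in each library.

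**Figure D2:**
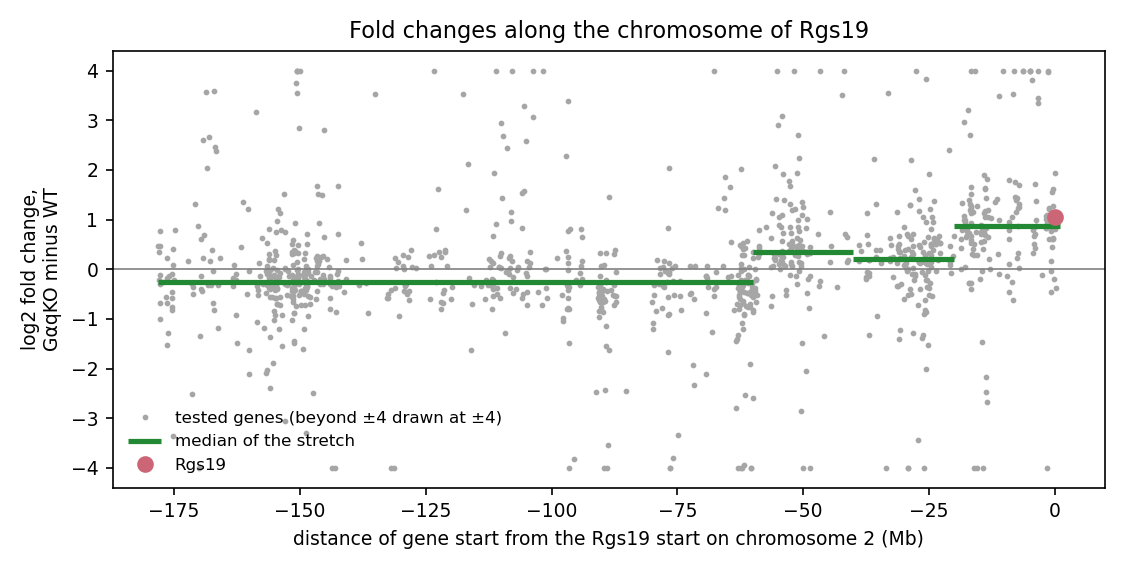
Log2 fold changes, GαqKO minus WT, of all tested genes on chromosome 2 (grey points) against the distance of the gene start from that of Rgs19 in Mb, with the median of each of 4 stretches as a green line and Rgs19 in red. The line is at -0.26 far from Rgs19 and at 0.88 over the last stretch, in which Rgs19 lies at 1.06.

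**Figure D3:**
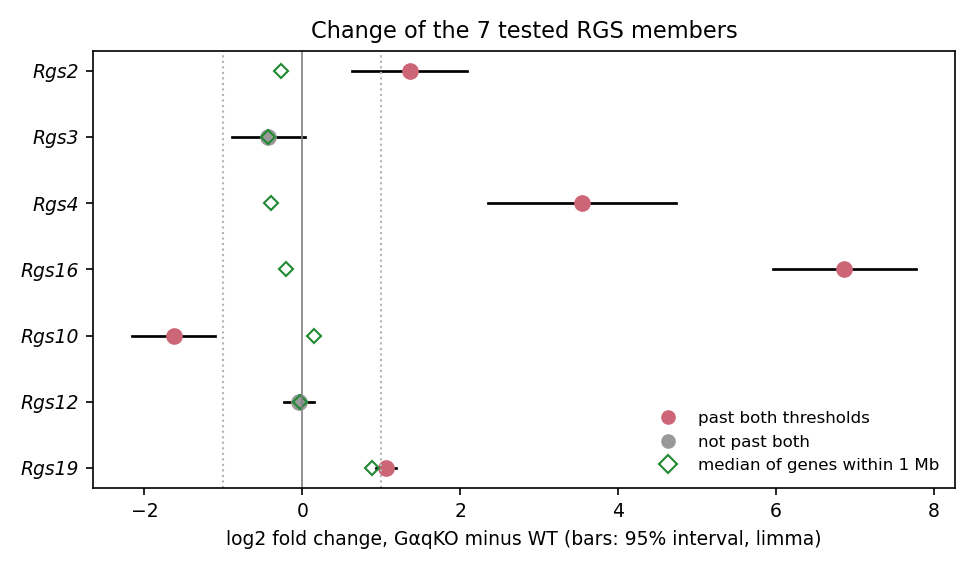
Log2 fold changes of the 7 tested RGS genes with 95% intervals from limma (red past both thresholds, grey not) beside the median log2 fold change of the other tested genes within 1 Mb (open diamonds). Rgs2, Rgs4, Rgs16 and Rgs10 lie away from their diamonds, Rgs3 and Rgs12 lie on theirs, and Rgs19 is 0.18 above its own. WT was at or under the floor for Rgs4 and Rgs16, so their points depend on the pseudocount.

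To compare levels between genes, the normalized counts were divided by the length of merged exons. Rgs19 led in each library, at 295.0 to 349.2 normalized counts per kb in WT and 659.6 to 687.1 in GαqKO. In WT it was followed by Rgs10 (37.0 to 42.3 per kb) and Rgs12 (28.0 to 30.3 per kb), whose ranges did not overlap, and then by Rgs3 (3.65 to 4.03 per kb) and Rgs2 (1.73 to 2.53 per kb). In GαqKO the second place was taken by Rgs16 at 64.5 to 76.0 per kb, followed by Rgs12 (27.6 to 29.7 per kb) and Rgs10 (8.30 to 16.4 per kb). Rgs2 (5.00 to 7.77 per kb) and Rgs4 (3.35 to 6.16 per kb) overlapped and could not be ordered, and Rgs3 came next at 2.69 to 2.87 per kb.

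The summed level of the 10 genes was 398 ± 29 normalized counts per kb in WT and 798 ± 14 in GαqKO (SD, n = 3 each). Rgs19 made up 81.1 ± 1.2% of that sum in WT and 84.2 ± 0.4% in GαqKO, so the difference in the sum was mostly that of Rgs19. The share of Rgs10 was 9.77 ± 0.41% in WT and 1.59 ± 0.49% in GαqKO, and that of Rgs12 was 7.35 ± 0.74% and 3.55 ± 0.16%. The share of Rgs16 was 0.064 ± 0.11% in WT and 8.84 ± 0.87% in GαqKO, close to the share that Rgs10 had in WT. These are shares of RNA levels and no test was made on them.

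**Figure D4:**
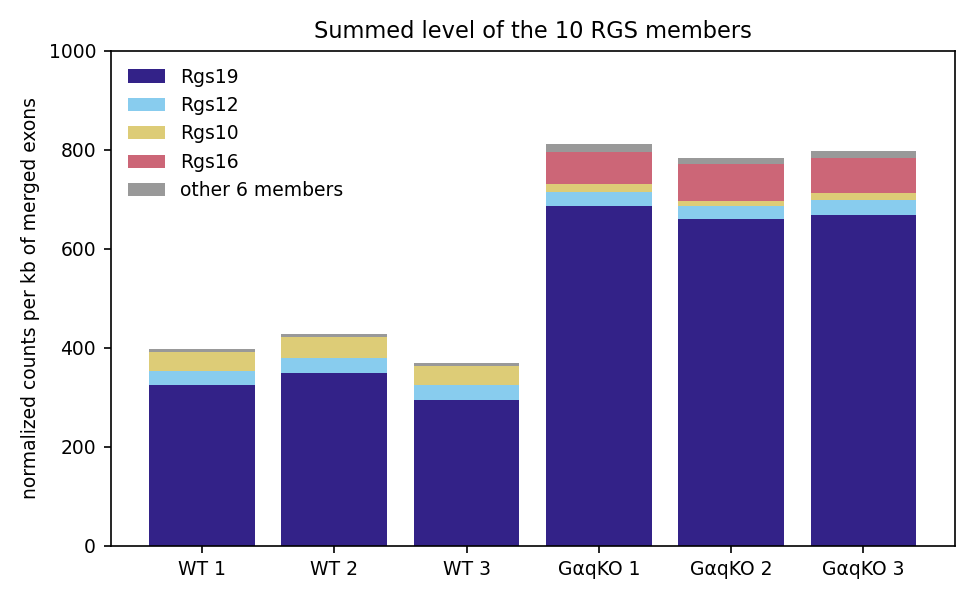
Summed level of the 10 RGS genes in each library as normalized counts per kb of merged exons, stacked by gene. Rgs19 makes up most of each bar, and the GαqKO bars (784 to 812) are taller than the WT bars (370 to 429) and hold a segment of Rgs16 that the WT bars lack at this scale.

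Of the 11 other classical RGS genes, 2 were tested and both were lower. Rgs9, the R7 gene best known from phototransduction and the striatum, had 13.6, 14.6 and 15.3 normalized counts in WT and 5.6, 4.6 and 1.0 in GαqKO (log2 fold change -1.87, SE 0.494, adjusted p = 0.0043 from limma). Rgs20, the third RZ gene, had 23.0, 15.5 and 23.4 in WT and 8.4, 9.2 and 4.0 in GαqKO (log2 fold change -1.44, SE 0.385, adjusted p = 0.0048 from limma). The groups did not overlap for either gene. Both genes passed the filter only through the WT libraries, in which they were high, so their count carries no weight, and 0 were tested when 10 normalized counts were required in every library. Under limma treat against a log2 fold change of 1, 0 of the 2 passed, and 1 had an unadjusted p under 0.05. The other 9 were under the filter, among them Rgs1, Rgs18 and Rgs21, which were at 1.2 normalized counts or less in each library. Over the 21 classical genes 9 were tested, with 4 higher and 3 lower, beside 20.7% of all tested genes past the thresholds. Rgs2, Rgs4, Rgs16, Rgs9 and Rgs20 passed the filter only through the group in which they were high, so the pooled count carries no weight either.

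The RGS-like domain also occurs in the axins, the G protein-coupled receptor kinases (GRKs), RhoGEFs and sorting nexins. Of 14 such genes 13 were tested, 2 were higher and none was lower past the thresholds in limma, edgeR or DESeq2, and 6 were higher and 0 lower at an adjusted as well as an unadjusted p under 0.05 in limma. Over all tested genes 20.7% passed the thresholds and 65.8% had an adjusted p under 0.05. Axin2, a scaffold of the β-catenin destruction complex and a known Wnt target, had 21.9, 14.6 and 13.2 normalized counts in WT and 63.8, 57.8 and 70.5 in GαqKO (log2 fold change 1.92, SE 0.253, adjusted p = 1.48e-05 from limma). Grk5, a kinase that phosphorylates active receptors, had 31.3, 33.0 and 43.8 in WT and 97.7, 72.8 and 79.6 in GαqKO (log2 fold change 1.19, SE 0.205, adjusted p = 0.000167 from limma). The median of the 13 genes was 0.16. Of 7 partners and anchors of RGS proteins, such as the R7 partner Gnb5, 4 were tested and 0 passed the thresholds in limma, edgeR or DESeq2, with 1 lower at an adjusted as well as an unadjusted p under 0.05 in limma.

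Of the 9 Gα genes whose proteins RGS domains act on, 7 were tested, 2 were higher and 2 lower. Over all tested genes 20.7% passed the thresholds in either direction. In the Gi class Gnai1 fell, from 865.6, 863.6 and 870.3 normalized counts in WT to 6.6, 4.6 and 3.0 in GαqKO (log2 fold change -7.29, SE 0.215, adjusted p = 3.69e-12 from limma). Gnao1, the gene of Gαo, rose from 529.4, 438.1 and 541.5 to 2141.9, 2091.6 and 2116.8 (log2 fold change 2.08, SE 0.0718, adjusted p = 1.74e-11 from limma). In the Gq class Gna11 fell (log2 fold change -2.25, adjusted p = 9.16e-13 from limma) and Gna14 rose, from 6.3, 0 and 3.0 to 57.3, 46.2 and 56.4 normalized counts (log2 fold change 4.13, adjusted p = 2.35e-05 from limma). Gnaz, whose product is a preferred substrate of the RZ proteins, was listed at 0 in all 6 libraries. The part of the counting in this 0 was not tested, so it is given as listed. The groups did not overlap for any of the 7 tested genes, as was true of 69.6% of all tested genes. Their median log2 fold change was 0.07. Gnai1 passed the filter only through WT and Gna14 only through GαqKO, so the count of genes past the thresholds carries no weight of its own. With at least 10 normalized counts required in every library 5 were tested, with 1 higher and 1 lower.

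**Figure D5:**
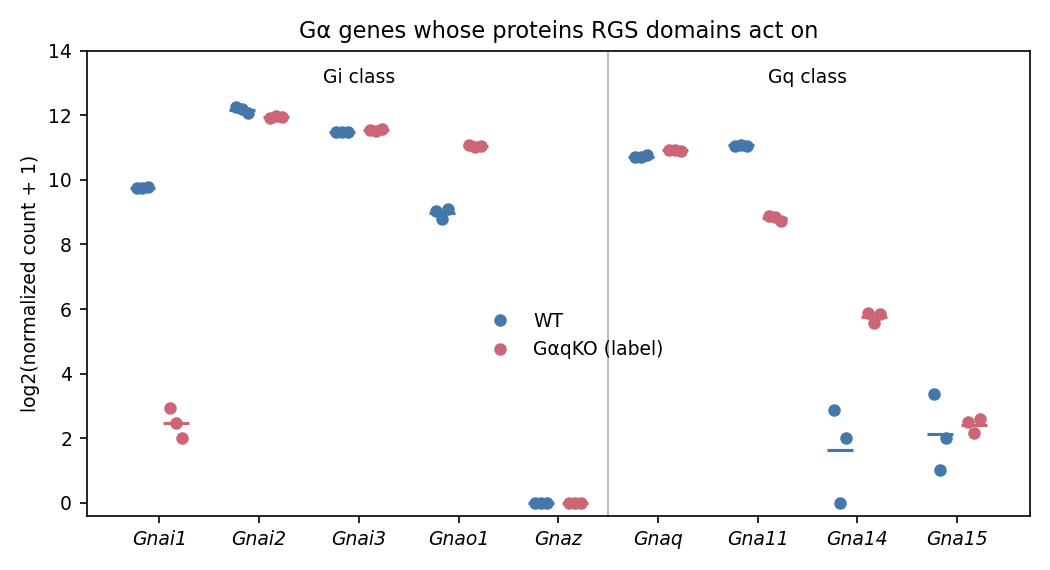
Levels of the 9 Gα genes of the Gi class (left) and Gq class (right) on the scale log2(normalized count + 1), with 1 point per library and bars at the mean, WT in blue and the libraries labelled GαqKO in red. Gnai1 and Gna11 lie lower in red, Gnao1 and Gna14 higher, and Gnaq is not lower.

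Rgs5 and Rgs4 are also expressed in mural cells of blood vessels, so the markers of those cells are given beside them. Of 10 pericyte and smooth muscle markers 5 were tested, 3 were lower (Mcam, Acta2 and Tagln) and the other 2 did not pass. Over all tested genes 10.5% were lower. Mcam and Tagln passed the filter only through the WT libraries. With at least 10 normalized counts required in every library 3 were tested and 1, Acta2, was lower. The 10 markers had a summed level of 1463.7 to 1683.5 normalized counts in WT and 319.3 to 367.6 in GαqKO. The pericyte-defining genes Cspg4, Kcnj8 and Abcc9 were at 5.8 normalized counts or less in each library. The summed level was carried mostly by Mcam and Acta2. The part of such cells in the levels of Rgs4 and Rgs5 was not tested.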

How the data were processed

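The samples were 6 MEF libraries, 3 per label, and groups and replicate numbers were taken from the labels. The authors aligned paired reads to GRCm39 with Rbowtie2, counted genes with featureCounts on GENCODE release 32 and deposited normalized counts, a signal made by dividing each gene count by 1 size factor per library. Versions, the strand setting and any filter are not given in the sources used here. Symbols and spans came from GENCODE release 39 on the same build, matched for 56310 of 56953 identifiers (98.9%).

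In each library 100% of values were whole multiples of the smallest nonzero value (tolerance 0.1 reads), which gave the reads. The rule for such recovery is least firm for GαqKO replicate 3, where 1 read is worth close to 1. Floors of 3 reads cover counting error only. limma 3.58.1 (R 4.3.3) was fitted with a trend to log2(normalized count + 1) of the 14096 genes that had 10 or more in 3 or more libraries, and p-values were adjusted by Benjamini-Hochberg over all of them. This scale understates changes of low genes. Alternatives used edgeR 4.0.16 and DESeq2 1.42.0 on the recovered reads. With 3 libraries against 3 an exact permutation test of a single value cannot go below p = 0.1, so none is given.

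The RGS genes and the lists were proposed with earlier results of these data known. Named from each list were up to 4 genes with the largest differences past the thresholds, genes at the floor, and the nearest protein-coding neighbours. A gene that this rule selects is not reported here. Gm28513, Gnb5 and Cd68 were added after values were seen. The methods state 3 biological replicates per label. Replicate pairs differed by 2.31 to 5.50 in chi-square per gene, more than counting noise. Scripts were tested on simulated data.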

Additional observations from a re-analysis of the deposited data

How the results depend on the processing

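The counts were 1432 genes higher, 1486 lower and 5 RGS genes past the thresholds. Requiring 10 normalized counts in every library gave 831 higher, 765 lower and 2 RGS genes. This setting tested 12054 genes instead of 14096 and left out genes that were low in 1 group only. Rgs2, Rgs4 and Rgs16 were among those left out. Testing against a log2 fold change of 1 (limma treat) gave 847 higher and 2 RGS genes (Rgs4 and Rgs16), with Rgs2, Rgs10 and Rgs19 at adjusted p = 0.882, 0.084 and 0.994. Leaving out each library gave 1426 to 1545 higher, 1492 to 1603 lower and 4 to 5 RGS genes, 4 without WT replicate 3, where Rgs19 was at 0.99. edgeR and DESeq2 called 5 RGS genes each, with 1458 and 1500 genes higher and 1483 and 1596 lower. The limma fit on the libraries of the count tests was not run, since these were all 6. The removal of chromosome medians and of neighbourhood medians was chosen after seeing the data. With chromosome medians removed 5 RGS genes passed, and with neighbourhood medians removed 4, Rgs19 at 0.18, while Rgs3 moved from -0.43 to 0.0, at which its sign has no meaning. Of 123 values of single RGS genes under the alternatives 117 kept their direction and their side of the thresholds. This tally leaves out Rgs2, Rgs4 and Rgs16 where 10 normalized counts were required in every library, since they were not tested there. The log2 fold change of Rgs16 ran from 4.94 to 7.95, of Rgs4 from 1.83 to 5.30, of Rgs2 from 1.06 to 1.63 and of Rgs10 from -1.83 to -1.35.

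Samples of the 2 labels share replicate numbers, but same-numbered samples deviated from their group means with correlations of -0.045, -0.148 and -0.064, so nothing pairs them. With the replicate block there were 1421 genes higher, 1478 lower and 5 RGS genes. At 9853000 to 12229175 reads per library Rgs5, Rgs14 and Rgs17 were under the filter, and without it their adjusted p in limma was 0.383, 0.626 and 0.858.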

Other observations

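Proteins other than RGS proteins also act on Gα subunits. Of 9 such genes, 8 were tested, 1 was higher and 2 were lower past the thresholds. Over all tested genes 10.2% were higher and 10.5% lower. Rap1gap, which switches off Rap1 and can bind Gα of the Gi class, had 11.5, 13.6 and 20.4 normalized counts in WT and 493.0, 477.5 and 468.3 in the libraries labelled GαqKO (log2 fold change 4.93, standard error [SE] 0.191, adjusted p = 5.14e-11 from limma). Gpsm3, a small protein with GoLoco motifs, had 12.5, 18.5 and 11.2 in WT and 3.8, 3.5 and 3.0 in GαqKO (log2 fold change -1.74, SE 0.411, adjusted p = 0.002 from limma). Ccdc88c, the Dishevelled-binding protein DAPLE that can activate Gαi, had 178.6, 202.1 and 223.9 in WT and 60.1, 68.2 and 66.5 in GαqKO (log2 fold change -1.62, SE 0.139, adjusted p = 1.93e-07 from limma). Pcp2 was listed at 0 in all 6 libraries, which is given as listed for the same reason as the 0 of Gnaz. The median of the 8 tested genes was -0.21. Gpsm3 passed the filter only through the WT libraries. With at least 10 normalized counts required in every library 7 were tested, with 1 higher and 1 lower.

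The proteins of Rgs4, Rgs5 and Rgs16 are known to be degraded through the cysteine branch of the N-degron pathway, so its genes were examined. Of 8 genes 7 were tested and 0 passed both thresholds in limma, edgeR or DESeq2. At an unadjusted p under 0.05 in limma 2 were higher and 4 were lower, and at an adjusted p under 0.05 there were 1 and 4, beside 65.8% of all tested genes. Ate1, the arginyl transferase, was listed at 0 in all 6 libraries. The part of the counting or of overlap with other genes in this 0 was not tested, so it does not show absence of the RNA. The table holds RNA and does not show the proteins.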
